A study of Mus musculus with 6 samples.

Results

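The genes examined were Acan, Vcan, Hapln1, Matn1, Matn2, Matn3, Matn4, Comp and Ucma, which encode aggrecan, its relatives and partners, and the adaptor proteins of the cartilage matrix. They were taken by gene name, 9 of the 46078 genes in the count tables. Bulk RNA sequencing compared E18.5 growth plate cartilage of the distal femur and proximal tibia from 3 Idh1 mutant mice (Col2a1-Cre; Idh1 LSL/+) with 3 controls (Idh1 LSL/+), 1 library per sample. Both groups carried an Idh1 allele in which a floxed stop cassette precedes the mutation, and the mutants alone carried Cre, so that Cre and mutant Idh1 cannot be told apart. Col2a1-Cre acts in cells that have used the type II collagen promoter, so that other cells of the dissected piece can keep the stop cassette. The controls were littermates in the study's methods, and the authors' own model held litter beside genotype. The labels name no litter, so that the fit used here lacks that term, and nothing in them states separate mothers or days, so that p-values measure the spread between these samples.

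Aggrecan is a large proteoglycan whose chondroitin sulfate chains hold water in cartilage. Its core protein binds hyaluronan, and link protein (Hapln1) fastens the core protein to it. Versican (Vcan) belongs to the same lectican family and is known from loose mesenchyme, perichondrium and early cartilage condensations. Matrilins are oligomers of von Willebrand factor A domains that join collagen fibrils to proteoglycans. Matn1 and Matn3 are largely restricted to cartilage, while Matn2 and Matn4 are made in more tissues. Comp, a pentamer of the thrombospondin family, binds collagens in cartilage and tendon. Ucma is a small secreted protein rich in gamma-carboxyglutamate, which is known from chondrocytes of the resting zone.

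The libraries held 23445687 to 30415773 counted reads, and 3 counts corresponded to 0.0979 to 0.127 CPM (counts per 1e6 of the TMM-scaled library), a floor that covers counting error only. The lowest count of any of the 9 genes was 282, for Matn3 in control 3, so that all 9 passed the filter on low counts. Idh1 itself had 37.3 to 65.4 CPM across the controls and 47.6 to 56.3 CPM in the mutants, and a gene count does not separate the alleles. Mutant 3 differed from the other libraries in having 26356 counts of Xist, which stood at 0 to 13 elsewhere, and 0 counts over 4 Y-linked genes. The summed level of 8 cartilage markers (Col2a1, the collagen IX and XI genes, Sox9 and Cnmd) lay between 5406 CPM in control 3 and 10838 CPM in mutant 1. Cartilage was therefore present in every library. The pieces also contained bone (5 markers, 33822 to 47952 CPM, mostly Col1a1, which tendon and skin also make) and muscle (5 markers, 12184 to 18786 CPM). In bulk tissue, fewer cells of a type and less RNA per cell cannot be told apart.

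Scaled by exonic length (TPM, transcripts per 1e6), Acan was the most abundant of the 9 genes with a mean of 335 TPM over the 6 libraries, rank 361 of all genes listed. Comp followed with 297 TPM, and Acan was above Comp in 4 of 6 libraries, so that these neighbours did not differ beyond their spread. Vcan (181 TPM) and Matn2 (176 TPM) were not separated either, Vcan being higher in 3 of 6 libraries, while Comp exceeded Vcan in all 6. Hapln1 (119 TPM), Ucma (115 TPM) and Matn1 (109 TPM) formed the next step, in which neighbours exchanged places between libraries. Matn4 had 47.8 TPM and Matn3 had 24.3 TPM, and Matn4 was above Matn3 in all 6 libraries. The least abundant matrilin, Matn3, thus stood at rank 6003 of all genes, and Matn2, a matrilin made in many tissues, had the highest mean of its family and was above Matn1 in 5 of 6 libraries, mutant 1 being the exception.

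**Figure D1:**
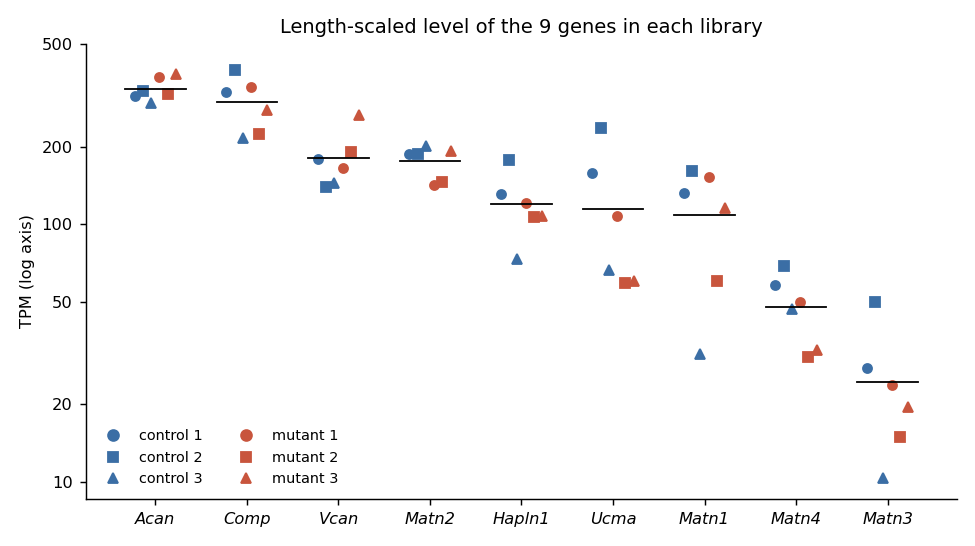
Length-scaled level (TPM, log axis) of the 9 genes in each control (blue) and Idh1 mutant (red) library, with the mean of all 6 as a line. Acan lies between 295 and 381 TPM, while Matn1 runs from 31.4 to 161 TPM and Matn3 from 10.3 to 49.9 TPM.

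The genes differed most in how far single libraries lay apart. The highest library exceeded the lowest 1.26-fold for Acan, 1.44-fold for Matn2, 1.80-fold for Comp and 1.89-fold for Vcan, but 3.98-fold for Ucma, 4.76-fold for Matn3 and 5.06-fold for Matn1. The standard deviation of log2 CPM over the 6 libraries was 0.14 for Acan, lower than in most tested genes (percentile 38.8). It was 0.92 for Matn1, 0.82 for Ucma and 0.77 for Matn3, at percentiles 98.8, 98.0 and 97.5 of the tested genes. Hapln1, Matn1, Matn3, Matn4, Comp and Ucma were all highest in control 2, and Hapln1, Matn1, Matn3 and Comp were all lowest in control 3, the library with the lowest cartilage marker sum. Matn1 and Comp put the 6 libraries in the same order. Acan, Vcan and Matn2 did not follow this order: Acan and Vcan were highest in mutant 3, and Matn2 was highest in control 3. The cartilage marker sum was 10547 CPM in control 2 and 10838 CPM in mutant 1. Of the markers, only Col2a1 and Col11a2 were highest in mutant 1. Col9a1, Col9a2, Col9a3, Col11a1, Sox9 and Cnmd were highest in control 2, so that this peak was not particular to the genes examined. The part of the marker sum in the spread was not tested. The covariate fit given for Ucma used the mean log2 level of the markers instead.

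**Figure D2:**
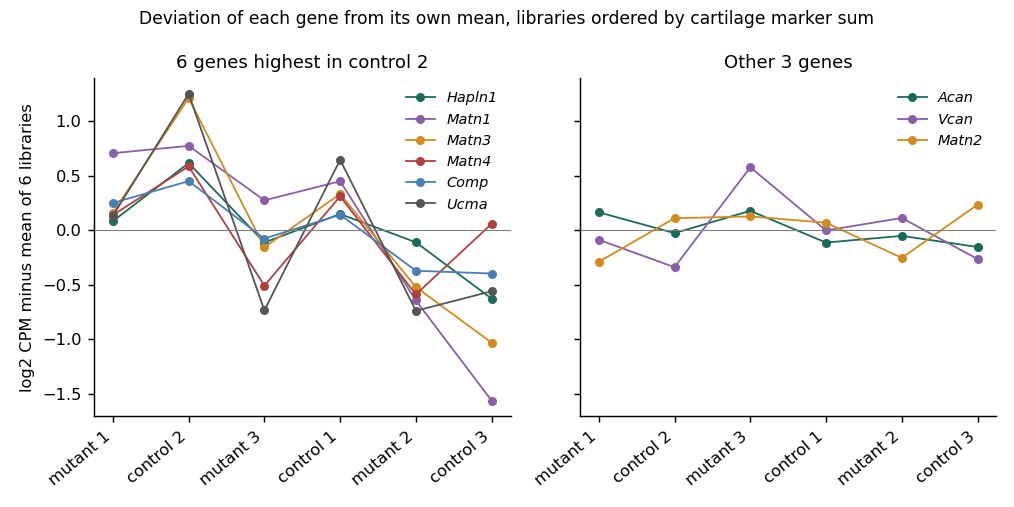
Deviation of log2 CPM from each gene's mean over 6 libraries, with the libraries ordered from the highest to the lowest cartilage marker sum. In the left panel, 6 genes peak in control 2, where Ucma stands at 1.25 and Matn3 at 1.21, and Matn1 drops to -1.56 in control 3, while the 3 genes of the right panel stay between -0.34 and 0.58.

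The genes whose centred log2 levels lay nearest, by the root mean square difference over the 6 libraries, were found for each of the 9. For Comp these were Sox5 (0.078), Derl3 (0.089) and Bmp2 (0.093). For Matn1 they were Epyc (0.22), 3830408C21Rik (0.25) and Snorc (0.27), for Matn3 Unc45bos (0.15), Gm11868 (0.17) and Mfi2 (0.19), and for Ucma Gm26676 (0.15), 9530026P05Rik (0.23) and Cytl1 (0.24). Among the 9 genes themselves, the nearest to Comp was Hapln1 (0.17) and the nearest to Ucma was Matn3 (0.34). For Hapln1 the nearest were Gm26690 (0.076), Pabpc5 (0.082) and Gm36989 (0.086), and for Matn4 Fxyd4 (0.086), Klc3 (0.10) and Crispld1 (0.10). Vcan lay nearest to C3ar1 (0.079), Kantr (0.079) and Cd84 (0.086), Matn2 to Gm38394 (0.038), Fam57a (0.047) and Itih5 (0.056), and Acan to Eif2d (0.032), Rabl2 (0.034) and Fabp5 (0.035). These are the closest of 16812 genes over only 6 libraries that share one dissection and depth range, and they are given as a description.

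Promoter sequence is shown for the evenly expressed Acan and for the 3 genes with the widest spread, as the 250 bases before the RefSeq start on the gene's strand (GRCm38.p6), with CG dinucleotides in capitals.
Acan, chr7:79052976-79053225, forward strand: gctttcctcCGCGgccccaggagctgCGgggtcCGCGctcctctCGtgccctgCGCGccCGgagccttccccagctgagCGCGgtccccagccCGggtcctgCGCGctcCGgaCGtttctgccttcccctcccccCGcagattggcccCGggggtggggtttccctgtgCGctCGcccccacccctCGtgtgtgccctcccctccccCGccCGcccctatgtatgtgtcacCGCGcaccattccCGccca
Matn1, chr4:130944135-130944384, forward strand: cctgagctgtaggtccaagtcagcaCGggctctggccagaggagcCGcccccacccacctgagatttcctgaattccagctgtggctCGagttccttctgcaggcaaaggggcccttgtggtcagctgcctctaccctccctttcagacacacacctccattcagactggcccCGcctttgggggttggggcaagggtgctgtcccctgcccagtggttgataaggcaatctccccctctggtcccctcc
Matn3, chr12:8947679-8947928, forward strand: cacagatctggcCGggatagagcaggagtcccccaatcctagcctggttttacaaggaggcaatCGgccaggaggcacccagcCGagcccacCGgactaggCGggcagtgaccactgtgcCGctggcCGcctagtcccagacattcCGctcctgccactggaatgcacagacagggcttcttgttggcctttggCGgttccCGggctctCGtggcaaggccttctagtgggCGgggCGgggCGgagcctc
Ucma, chr2:4975872-4976121, forward strand: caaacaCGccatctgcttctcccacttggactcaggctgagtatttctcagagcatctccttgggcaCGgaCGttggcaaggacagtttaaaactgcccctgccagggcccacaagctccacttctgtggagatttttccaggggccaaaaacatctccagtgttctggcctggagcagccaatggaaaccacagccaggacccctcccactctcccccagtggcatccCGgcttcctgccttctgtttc

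The Acan window held 26 CG dinucleotides and was 74.4% G or C. Matn3 had 14 (65.2% G or C), Matn1 had 4 (62.0%) and Ucma had 4 (56.4%), beside a median of 6 and 52.4% over 32851 promoter windows of the same length. A TATA element (TATAAA) was searched on both strands and found in 12.4% of all windows. A form of the element that Sox proteins bind (ACAATG) was found in 10.7% of them. The other form searched for (ACAAAG) was found in 16.5%. The RefSeq table matched 7 of the 9 genes, not Comp and Matn2. None of the 3 motifs was in its 8 windows for Acan, Vcan, Hapln1, Matn1, Matn3, Matn4 and Ucma, which says only that these letters are not there.

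The comparison of genotypes asked whether mutant Idh1 went with a different level of these matrix genes. No call was made for any of the 9 genes by edgeR's quasi-likelihood test (adjusted p under 0.05 over 16813 genes), which called 0.19% of all tested genes (9 higher and 23 lower in the mutants). DESeq2 and limma-voom also called 0 of the 9. At an unadjusted p under 0.05 there were 4 of the 9 (Vcan, Matn2, Matn4 and Ucma), beside 8.64% of the tested genes. Of these 4, Matn2, Matn4 and Ucma were on the lower side, where 4.93% of the tested genes stood, and Vcan on the higher side, with 3.71%. In 0 of the 9 did the groups fail to overlap, against 14.4% of the tested genes. The log2 fold change was negative in 6 genes and positive in 3, with a median of -0.18, beside -0.003 over all genes tested, of which 50.7% were negative.

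Without mutant 3, the library that differed in Xist and the Y-linked genes, 0 of the 9 were called by edgeR, and the log2 fold change was 0.16 for Acan, 0.21 for Vcan, -0.14 for Hapln1, -0.0046 for Matn1, -0.41 for Matn2, -0.58 for Matn3, -0.52 for Matn4, -0.13 for Comp and -0.87 for Ucma.

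**Figure D3:**
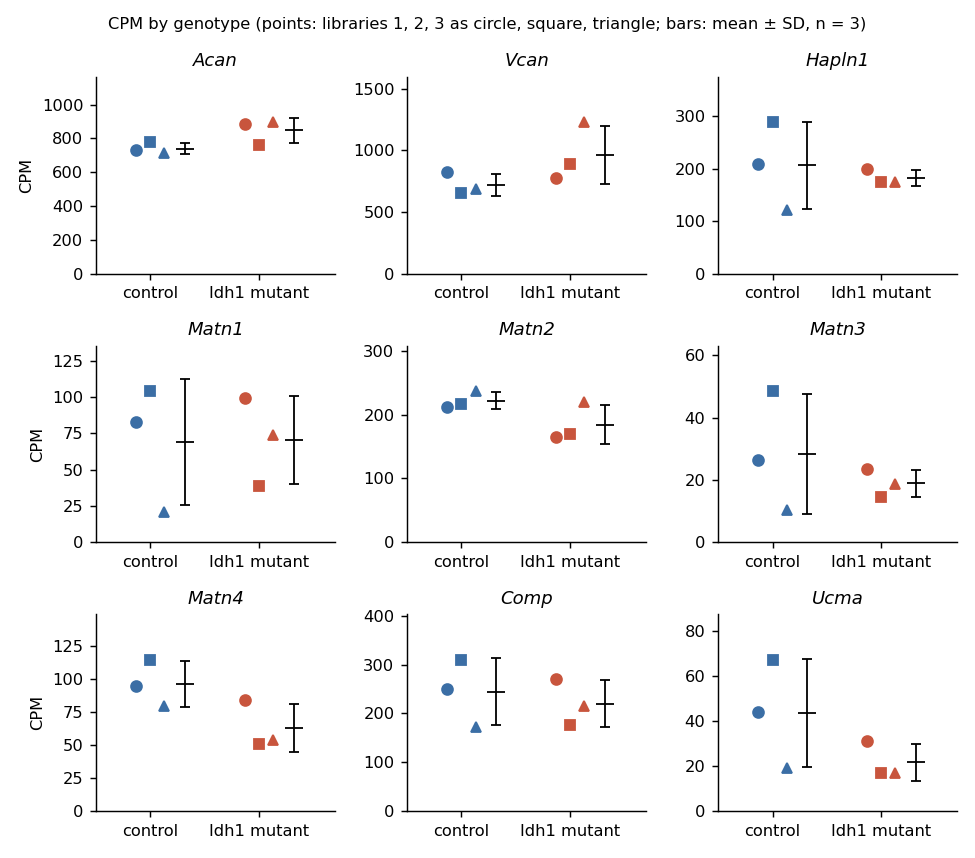
CPM of the 9 genes by genotype, with libraries 1, 2 and 3 as circle, square and triangle and the mean ± SD (n = 3) beside them. The groups overlap in every panel, in Matn4 only through mutant 1 (84.3 CPM), which stands above control 3 (79.7 CPM).

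Acan (ENSMUSG00000030607, chromosome 7 from 79053483 to 79115099, forward strand of GRCm38) had 731, 777 and 711 CPM across controls 1, 2 and 3 and 886, 763 and 895 CPM across mutants 1, 2 and 3. Mutants 1 and 3 were above all controls, and mutant 2 was below control 2. The means were 740 ± 33.5 CPM (SD, n = 3) and 848 ± 73.7 CPM (SD, n = 3). The log2 fold change was 0.20 (standard error 0.10, 95% interval -0.03 to 0.42, adjusted p = 0.646, edgeR with Benjamini-Hochberg adjustment). Among the 9 genes this was the narrowest interval.

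Vcan (ENSMUSG00000021614, chromosome 13 from 89655312 to 89742509, reverse strand) had 821, 650 and 685 CPM across the control libraries and 773, 889 and 1226 CPM across the mutant libraries. The groups overlapped because control 1 was above mutant 1, and the highest level by far was that of mutant 3. Its log2 fold change was 0.42 (standard error 0.17, interval 0.05 to 0.80, adjusted p = 0.523, edgeR). Without mutant 3 the log2 fold change was 0.21. An antisense gene, Gm4117, runs over the start of Vcan, but its annotated exons share no base with those of Vcan.

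Hapln1 (ENSMUSG00000021613, chromosome 13 from 89540636 to 89611832, forward strand) had 208, 288 and 122 CPM across the control libraries and 199, 174 and 174 CPM across the mutant libraries. All 3 mutants lay inside the range of the controls, which was wide (mean 206 ± 83.2 CPM, SD, n = 3) beside that of the mutants (182 ± 14.5 CPM, SD, n = 3). Hapln1 had a log2 fold change of -0.18 (standard error 0.24, interval -0.72 to 0.37, adjusted p = 0.904, edgeR). Hapln1 and Vcan are neighbours, 43.7 kb apart with no coding gene between them. Each of the other 3 lecticans has a link protein gene beside it in the same way, and Acan is followed by Hapln3, whose level was only 1.44 ± 0.696 CPM across the controls and 0.928 ± 0.299 CPM across the mutants (SD, n = 3 each).

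Among the matrilins, Matn1 (ENSMUSG00000040533, chromosome 4 from 130944385 to 130955475, forward strand) had 83.2, 104 and 20.6 CPM across the control libraries and 99.4, 39.0 and 73.7 CPM across the mutant libraries. Each group held a low library, control 3 and mutant 2, and the means differed by less than either SD, at 69.3 ± 43.5 and 70.7 ± 30.3 CPM (SD, n = 3 each). The log2 fold change was 0.03 with a standard error of 0.49. Its 95% interval, -1.07 to 1.12, was the widest of the 9 genes and spans a change of more than 1 log2 unit either way (adjusted p = 0.995, edgeR). Without control 3 the log2 fold change was -0.40.

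Matn3 (ENSMUSG00000020583, chromosome 12 from 8947929 to 8972028, forward strand), which assembles with Matn1 in mixed oligomers, had 26.3, 48.5 and 10.2 CPM across the control libraries and 23.4, 14.5 and 18.7 CPM across the mutant libraries. Controls 1 and 2 were above all mutants and control 3 was below them. Matn3 had a log2 fold change of -0.59 (standard error 0.43, interval -1.55 to 0.37, adjusted p = 0.780, edgeR), and it was 0.05 without control 2. The level of Matn3 relative to Matn1 was 0.210 to 0.328 across the controls and 0.156 to 0.248 across the mutants on the TPM scale. The ranges overlapped, and this ratio varied 2.11-fold over the libraries, less than either gene.

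Matn2 (ENSMUSG00000022324, chromosome 15 from 34306680 to 34436242, forward strand) had 211, 217 and 237 CPM across the control libraries and 165, 169 and 220 CPM across the mutant libraries. Mutants 1 and 2 were below all controls, and mutant 3 was among them. Matn2 had a log2 fold change of -0.27 (standard error 0.12, interval -0.53 to -0.004, adjusted p = 0.567, edgeR). Reads were counted without regard to strand, and 70 exonic bases of Matn2 are shared with 9430069I07Rik on the opposite strand, so that its count is uncertain there.

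Matn4 (ENSMUSG00000016995, chromosome 2 from 164389393 to 164405160, reverse strand) had 94.9, 115 and 79.7 CPM across the control libraries and 84.3, 50.9 and 53.8 CPM across the mutant libraries. Mutants 2 and 3 were below all controls, and mutant 1 was above control 3. The means were 96.5 ± 17.6 and 63.0 ± 18.49 CPM (SD, n = 3 each), a log2 fold change of -0.62 (standard error 0.19, interval -1.05 to -0.19, adjusted p = 0.394, edgeR). Its unadjusted p of 0.00994 was the lowest of the 9 genes in the edgeR fit. Matn4 passed the threshold when genes of low count were kept in the test (adjusted p = 0.00364, edgeR) and had an adjusted p of 0.0625 with DESeq2. It shares 149 exonic bases with Rbpjl on the opposite strand.

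Comp (ENSMUSG00000031849, chromosome 8 from 70373548 to 70382065, forward strand) had 250, 310 and 172 CPM across the control libraries and 270, 175 and 215 CPM across the mutant libraries. All mutants lay inside the control range. Comp had a log2 fold change of -0.15 (standard error 0.21, interval -0.61 to 0.31, adjusted p = 0.905, edgeR), and it was 0.06 without control 2.

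Ucma (ENSMUSG00000026668, chromosome 2 from 4976122 to 4985748, forward strand) had 44.2, 67.3 and 19.1 CPM across the control libraries and 31.0, 16.9 and 17.0 CPM across the mutant libraries. Mutants 2 and 3 were the lowest libraries, control 3 stood just above them, and mutant 1 exceeded control 3. The means were 43.6 ± 24.1 and 21.6 ± 8.11 CPM (SD, n = 3 each). The log2 fold change of -1.02 was the most negative of the 9 genes, with a standard error of 0.39 and an interval of -1.89 to -0.14 (adjusted p = 0.506, edgeR). With the mean log2 level of the 8 cartilage markers as a covariate it was -0.89 with an adjusted p of 0.0268 (edgeR). With genes of low count kept in the test the adjusted p was 0.00364 (edgeR). With any single library removed, the log2 fold change lay between -1.37 and -0.55 and the adjusted p from edgeR between 0.168 and 0.946. The value nearest 0 was that without control 2.

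**Figure D4:**
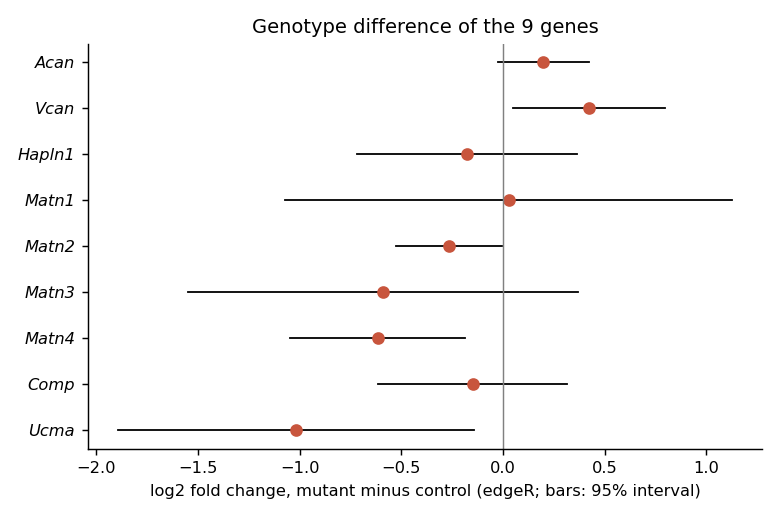
Log2 fold change (mutant minus control) of the 9 genes from edgeR, with 95% intervals as bars. The intervals of Vcan, Matn2, Matn4 and Ucma exclude 0 before adjustment over all genes, and that of Matn1, from -1.07 to 1.12, is the widest.

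The make-up of the matrix transcripts within a library was compared next, as each gene's level relative to Acan, a measure that does not depend on the scaling between libraries. Ucma stood at 0.503, 0.721 and 0.224 of the Acan level across the controls and 0.291, 0.184 and 0.158 across the mutants on the TPM scale. Mutant 1 again exceeded control 3. Matn4 stood at 0.185, 0.210 and 0.159 across the controls and 0.135, 0.0947 and 0.0854 across the mutants, so that every mutant was below every control. Matn2 was likewise separated, with 0.592, 0.574 and 0.683 against 0.381, 0.454 and 0.504. The exact two-sided permutation p was 0.1 for both, the smallest that 3 against 3 allow, and 0.4 after adjustment over the 8 ratios. These 2 of 8 stand beside a background of 23.2% of all tested genes, whose level relative to Acan was also lower in every mutant than in every control. Vcan (0.425 to 0.571 against 0.444 to 0.697), Comp (0.734 to 1.21 against 0.696 to 0.922), Hapln1, Matn1 and Matn3 overlapped between the groups. Which genes were separated changed with Col2a1 as the reference, as given in the last section.

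**Figure D5:**
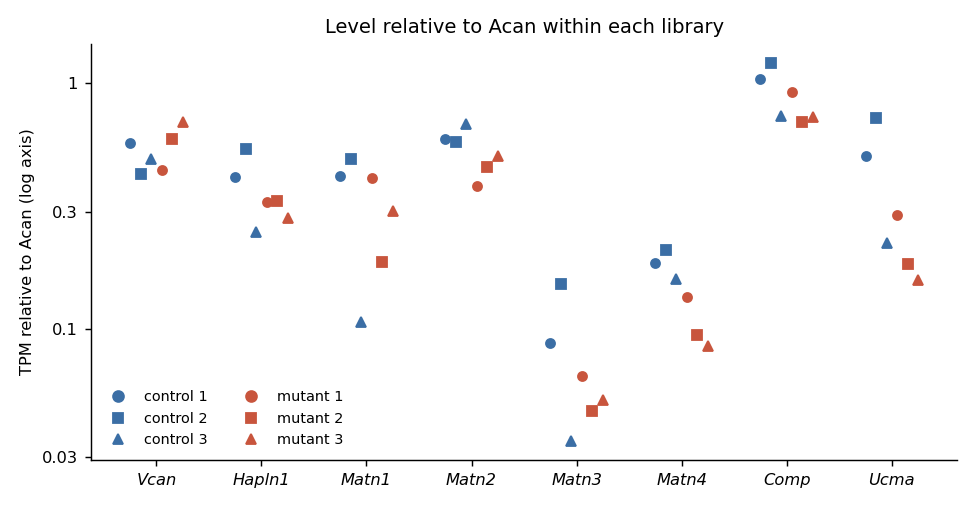
Level of 8 genes relative to Acan within each library (ratio of TPM, log axis), controls in blue and mutants in red. The mutant points of Matn2 and Matn4 all lie under the control points, and in Ucma mutant 1 (0.291) exceeds control 3 (0.224).

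All 36 pairs of the 9 genes were then compared, a step added after the values were seen. The groups did not overlap in 8 pairs, and the lowest adjusted p over the 36 exact permutation tests was 0.450, since the design allows no p under 0.1. Ucma was lower in every mutant than in every control relative to Matn1, Matn3 and Hapln1. Relative to Matn1 it stood at 1.20, 1.46 and 2.10 in controls 1, 2 and 3 and at 0.705, 0.982 and 0.521 in mutants 1, 2 and 3 (TPM scale). The difference of log2 ratios was -1.12, with a range of -1.35 to -0.89 over the 6 versions lacking a library. Leaving out a library cannot reverse the sign of a separated pair, so that this range shows only the size. Of all tested genes, 0.315% were lower relative to Matn1 in this separated way, 0.107% relative to Matn3 and 1.1% relative to Hapln1. These references were taken after they were seen to separate from Ucma, so that the shares are a description and no test. The ratio to Matn3 was 4.73 to 6.41 across the controls and 3.08 to 4.52 across the mutants, and that to Hapln1 was 0.900 to 1.34 and 0.555 to 0.889. Control 3, whose CPM of Ucma was close to that of the mutants, had the highest level of Ucma relative to Matn1 and Matn3.

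Matn2 and Matn4 were separated relative to Vcan as well as to Acan. Matn2 relative to Vcan was 1.04 to 1.40 across the controls and 0.723 to 0.859 across the mutants, and Matn4 relative to Vcan was 0.323 to 0.494 and 0.123 to 0.305, beside 25.7% of all tested genes that were lower relative to Vcan in every mutant. Comp relative to Matn4 was 4.61 to 5.75 across the controls and 6.83 to 8.53 across the mutants, beside 28.5% of the tested genes that were higher relative to Matn4 in this way.

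Genes that act with these proteins were followed through fixed lists. Among 9 hyaluronan and lectican partners, 7 were tested and 0 had an adjusted p under 0.05 (edgeR, 1 with an unadjusted p under 0.05), with a median log2 fold change of 0.15. The hyaluronan receptor Cd44 had 244 ± 10.6 and 270 ± 67.2 CPM (SD, n = 3 each) in controls and mutants, and the hyaluronan synthases Has2 (27.1 and 29.6 CPM) and Has1 (8.22 and 9.12 CPM) had close means. Bcan, the lectican brevican of the brain, was low, with 1.47 ± 1.29 and 3.80 ± 0.431 CPM (SD, n = 3 each), and all mutants were above all controls (log2 fold change 1.37, standard error 0.48, adjusted p = 0.455, edgeR).

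The list of proteases that cut lecticans or Comp, with their inhibitor Timp3, held 10 genes, of which all were tested and 0 were called (edgeR, 2 with an unadjusted p under 0.05), with a median of -0.13. The highest were Timp3 (169 ± 7.13 and 150 ± 3.30 CPM, SD, n = 3 each, adjusted p = 0.580, edgeR), Adamts1 (87.3 and 116 CPM), Adamts9 (93.2 and 86.7 CPM) and Adamts12 (70.7 and 61.3 CPM), which degrades Comp. The 2 were Adamts1, with a log2 fold change of 0.41, and Adamts12, with -0.21.

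Among 17 further cartilage matrix genes, 1 was called, lower in the mutants, beside 0.137% of the tested genes, and the median was -0.16. This was Cilp, cartilage intermediate layer protein, with 164, 168 and 134 CPM across the control libraries and 92.9, 105 and 84.9 CPM across the mutant libraries (log2 fold change -0.72, standard error 0.11, adjusted p = 0.0444, edgeR). Its adjusted p ranged from 1.9e-06 to 0.214 over 14 other settings (edgeR, DESeq2 and limma-voom), with 4 under 0.05, and was 0.0854 with the replicate number as a block (edgeR), and of the fits without a library only that without control 3 kept the call. Chad, Cilp2, Prg4 and Cytl1 had an unadjusted p under 0.05 and log2 fold changes of -1.03, -0.61, -0.73 and -0.81, a choice of names made with the values in view. The most abundant genes of the list were Col2a1 (log2 fold change 0.45, standard error 0.26), Col11a1 (-0.10), Col11a2 (0.30) and Col9a2 (-0.19), none past the threshold.

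The 4 other thrombospondins, relatives of Comp, had 0 calls (edgeR, 1 with an unadjusted p under 0.05) and a median of 0.07. Thbs3 had 364 ± 21.8 CPM without Cre and 444 ± 31.4 CPM with it (SD, n = 3 each), with separated groups (log2 fold change 0.29, adjusted p = 0.404, edgeR). Thbs1 (260 and 284 CPM), Thbs2 (1238 and 1098 CPM) and Thbs4 (815 and 825 CPM) had log2 fold changes of 0.13, -0.17 and 0.02, and Thbs2 was separated the other way, each mutant lying under each control. In the list of 6 vitamin K carboxylation genes, whose enzymes modify Ucma, 0 were called and 0 had an unadjusted p under 0.05 (edgeR), with a median of -0.02. Ggcx, the carboxylase, had 78.0 ± 2.29 and 85.7 ± 3.38 CPM (SD, n = 3 each), with every mutant above every control (adjusted p = 0.668, edgeR). Vkorc1 had 73.0 and 64.3 CPM, and the carboxylated matrix and plasma proteins Mgp and Gas6 had 438 and 395 CPM and 250 and 240 CPM. Of 7 chondrocyte transcription factors 0 were called (edgeR, 3 with an unadjusted p under 0.05), 6 had a negative log2 fold change and the median was -0.15. Sox9, which drives Acan, Hapln1 and Matn1, had 98.7 ± 20.6 and 85.9 ± 16.0 CPM (SD, n = 3 each), Trps1 135 and 122 CPM, Sox6 50.4 and 48.2 CPM and Runx2 43.5 and 33.9 CPM. The 3 with an unadjusted p under 0.05 were Runx2 (log2 fold change -0.36), Runx3 (-0.33) and Nkx3-2, which was the one positive gene (0.71). Nkx3-2 was higher in every mutant than in every control (adjusted p = 0.394, edgeR). Runx2 and Runx3 were lower in every mutant than in every control (adjusted p = 0.563 and 0.529, edgeR). Groups did not overlap, in either direction, in 14.4% of all tested genes.

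Markers of other tissues were summed beside these values. Of all tested genes, 14.4% had groups that did not overlap. By edgeR 0.19% were called, 0.137% being lower in the mutants, and 8.64% had an unadjusted p under 0.05. The summed level of 5 tendon markers was 2450 to 2606 CPM in the controls and 1356 to 1575 CPM in the mutants, with all 5 lower in every mutant and 1, Tnmd, called (log2 fold change -0.81, adjusted p = 0.0374, edgeR, and under 0.05 in 7 of 14 other settings, with a range of 2.3e-08 to 0.211). Comp and Cilp are also made in tendon. The sum of 4 blood markers was 457 to 1313 CPM against 238 to 353 CPM, with all 4 lower in every mutant and 0 called (edgeR, 3 with an unadjusted p under 0.05). Joint surface markers summed to 186 to 375 CPM in the controls and 181 to 207 CPM in the mutants, with 0 of 4 called (edgeR, 1 with an unadjusted p under 0.05, Prg4), and hypertrophic cartilage markers to 114 to 576 and 364 to 613 CPM, with 0 of 4 called and 0 with an unadjusted p under 0.05 (edgeR). Cartilage markers summed to 5406 to 10547 CPM and 7782 to 10838 CPM, with 0 of 8 called, 0 with an unadjusted p under 0.05 (edgeR) and 6 negative. The ranges for bone (33822 to 47952 and 39189 to 40973 CPM), muscle (12783 to 18786 and 12184 to 17792 CPM) and endothelium (618 to 660 and 626 to 704 CPM) overlapped, with 0 called in each (edgeR, unadjusted p under 0.05 in 2 bone, 0 muscle and 1 endothelial markers). The bone sum is mostly Col1a1, with a log2 fold change of 0.01, while all 5 bone markers had a positive value and a median of 0.49. Among these, Ibsp had means of 475 CPM for controls and 1190 CPM for mutants, and its groups overlapped (adjusted p = 0.557, edgeR). Dmp1 had 37.0 and 125 CPM, with every mutant above every control (adjusted p = 0.522, edgeR). Skin markers were low, at 7.81 to 16.6 and 6.58 to 6.70 CPM, where Krt5 was called lower (log2 fold change -4.46, adjusted p = 0.0355, edgeR, and under 0.05 in 5 of 13 other settings) and Krt14 and Krt5 were at 0 in some mutant libraries. The part of these tissues in the levels of Matn2, Matn4 and Ucma was not tested.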

How the data were processed

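Total RNA of 6 samples was captured on oligo-dT beads. The authors trimmed reads with Trim Galore 0.6.4, mapped them to GRCm38 with STAR 2.6.1d and counted them on exons with featureCounts 1.6.4, ignoring strand. The deposited values are raw counts per gene, 1 table per library. The count of unused per-sample columns was 0. Groups and replicate numbers came from the sample labels.

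The counts of 46078 genes were filtered with filterByExpr (minimum count 10, total 15) and scaled by TMM in edgeR 4.0.16 (R 4.3.3). The quasi-likelihood test compared 3 mutants with 3 controls over 16813 genes, with Benjamini-Hochberg adjustment and a threshold of 0.05. Log2 levels used a prior count of 2. CPM is counts per 1e6 counts of the TMM-scaled library, and TPM also divides by the exonic lengths in the tables. DESeq2 1.42.0 and limma 3.58.1 were alternatives. On simulated counts edgeR recovered 93 of 100 genes changed 2-fold and 69 of 100 changed 1.5-fold, with 9 false calls over 16547 genes. The simulated spread followed the trend over genes of like abundance. Matn1, Matn3 and Ucma varied more between replicates (biological coefficient of variation 0.41, 0.36 and 0.33, against a common value of 0.13). The recovered shares therefore do not hold for these genes. No pair of replicate libraries was alike within sampling noise (chi-square over degrees of freedom from 11.6 to 45.1). Within-library ratios were tested by exact permutation.

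The members and lists were chosen with earlier results of these data known. The text names the 9 genes, called genes and up to 4 of the most abundant genes of each list, and the 3 genes nearest to each of the 9. Chad, Cilp2, Prg4, Cytl1, Hapln3, Runx3, Nkx3-2, Idh1, Xist and the single markers (such as Tnmd, Krt5, Ibsp and Dmp1) were named outside this rule, all but Idh1 after their values were seen. Cnmd and Snorc are listed in the tables under older symbols and were matched by identifier. Overlaps came from GENCODE M21 and promoters from RefSeq, both on GRCm38. Figures were drawn with matplotlib 3.10.9.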

Additional observations from a re-analysis of the deposited data

How the results depend on the processing

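The count of genes past the threshold was 32 with edgeR, 193 with DESeq2, 19 with limma-voom, 259 without the low-count filter, and 3 to 17 when single libraries were left out. The replicate numbers gave no sign of pairing: deviations of same-numbered libraries correlated at -0.13, 0.007 and -0.10. The highest value was 0.16, for control 3 with mutant 1, and values this small cannot tell which samples shared a litter. With the replicate number as a block, 3 genes were called by edgeR and 96 by DESeq2, and 0 of the 9 matrix genes by either. Of those 9, 2 were called without the low-count filter (Matn4 at -0.62 and Ucma at -1.02), beside 259 of the 28686 genes tested there. With the cartilage covariate 1 was called (Ucma at -0.89), beside 32 of 16813 genes. The main fit called 0 of the 9. Without single libraries the log2 fold change ranged from -0.44 to 0.15 for Hapln1, -0.98 to 0.049 for Matn3 and -0.35 to 0.062 for Comp, each positive without control 2 alone. It ranged from -0.40 to 0.45 for Matn1, negative without control 3 (-0.40), mutant 1 (-0.30) or mutant 3 (-0.0046). The Matn1 to Acan difference (0.03) ranged from -0.67 to 0.44 in the same fits. With Col2a1 as the reference gene it was -0.28, and that of Vcan was -0.10 in place of 0.21. Relative to Col2a1, Hapln1, Matn3, Matn4, Comp and Ucma were lower in every mutant than in every control (adjusted p = 0.18 each, exact permutation). Matn2 overlapped there (adjusted p = 0.3, exact permutation), so that the separated genes depended on the reference. The share of all tested genes separated from Col2a1 in this way was not computed, so that these separations are no result about the named genes. Col2a1 itself had a log2 fold change of 0.45. With Acan as the reference, 23.2% of all tested genes were lower in every mutant. Acan, Vcan, Matn2, Matn4 and Ucma kept their direction in all 14 settings. What lies behind these shifts was not tested.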
